A study of Homo sapiens with 24 samples.

Results

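CYTH3, METTL7A, C1orf186, DISP3, CDC42EP2, FAM53B, BTNL9 and MCAM are 8 genes whose mRNA rose with the glucocorticoid dexamethasone (dex) in Nalm6 cells and reached a lower level after dex when the coregulator G9a, GLP or HP1γ had been depleted. They were picked by name from earlier results of the same libraries: the dex response of control cells, and the comparison of each depleted line with control cells in dex, chose them. Those contrasts are therefore given as fitted values with standard errors (SE) and without a test. The 8 symbols map to 9 RefSeq accessions of 64519 in the count table, because BTNL9 has 2 accessions and each of the other 7 genes has 1. All 9 were among the 10167 accessions that passed the filter of more than 1 CPM (counts scaled by the total of the library) in at least 2 libraries, and unless an accession is named a BTNL9 value refers to the more abundant one, NM_152547.

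Nalm6 cells are a long-established line from a human acute lymphoblastic leukemia of B-cell precursors. Cells were transduced with lentivirus carrying an shRNA with no specific target (shNS) or one against G9a (gene EHMT2, line shG9a), GLP (gene EHMT1, line shGLP) or HP1γ (gene CBX3, line shHP1g), and received 100 nM dex or the same volume of ethanol for 8 h. Each of the 8 conditions had 3 biological replicates made on different days, 24 libraries of total RNA in all, and all 4 lines carried an shRNA vector. 1 shRNA stands for each depletion in the labels, so an effect of the hairpin other than the loss of its target cannot be told apart from the depletion.

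The glucocorticoid receptor is a transcription factor that enters the nucleus when it binds a glucocorticoid, docks on DNA at glucocorticoid response elements and recruits coregulators to the genes it controls. G9a and GLP are related lysine methyltransferases, best known for repressive methylation of histones, that also act as coactivators of the receptor at some genes, and HP1γ is a reader protein of methylated lysine. In lymphoid cells glucocorticoids induce genes of growth arrest and cell death, which is why dex is used against leukemia.

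The libraries held 9289533 to 14387770 counts (median 11132064.5). Within groups the chi-square statistic per degree of freedom between replicate libraries ran from 3.43 to 40.0, so none repeated another, and shG9a dex replicate 2 and shHP1g replicate 1 gave the pairs that stood furthest apart. The mRNA of the depleted genes was covered thinly in this table. EHMT1, at 18 to 50 counts per library, differed between shGLP and shNS by -0.65 ± 0.21 (log2 fold change ± SE) in ethanol and -0.37 ± 0.21 in dex, and neither passed the test (adjusted p = 0.0923 and 0.41, edgeR). CBX3 NM_016587 differed between shHP1g and shNS by -0.50 ± 0.22 in ethanol and -0.61 ± 0.22 in dex (adjusted p = 0.277 and 0.142, edgeR), CBX3 NM_007276 by -0.30 and -0.15 (adjusted p = 0.644 and 0.842, edgeR), and EHMT2 was not analysed here. Of 10 B-cell precursor markers, 3 had a mean over 1 CPM (CD79A, IGLL1 and MME), while CD79B and CD22 had no count in any library. Genes with several RefSeq accessions passed the filter less often: 53.3% of the 8059 protein-coding genes with 1 accession had a tested one, against 25.4% of the 4284 with 4 or more, and CD79B and CD22 have 4 and 5. The 5 T-cell markers in the table summed to at most 0.27 CPM and the 5 erythroid ones to at most 0.518 CPM. Myeloid markers summed to 20.6 to 33.9 CPM in shGLP libraries and 2.74 to 11.8 CPM in the others, mostly through LYZ, which had 208 to 338 counts in each shGLP library and 20 to 102 elsewhere, and the part of this difference in the results on shGLP cells was not tested.

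In control cells dex raised each of the 8 mRNAs between 2.21-fold (MCAM) and 5.36-fold (C1orf186), with a median log2 change of 1.70; 4.49% of all accessions were called higher there, and nothing is read from that beside genes chosen for it. CYTH3 is a guanine nucleotide exchange factor for ARF GTPases that is recruited to membranes by phosphoinositides, and it showed the plainest pattern. In shNS libraries it stood at 118, 120.4 and 118 CPM in ethanol and 387, 399.5 and 448 CPM in dex, in the order of replicates 1 to 3. After G9a depletion the values were 109, 104 and 99.0 CPM in ethanol and 192, 216 and 206 CPM in dex. Each shG9a ethanol library thus lay somewhat below the control range, whereas no dex library of the shG9a line came near the control range.

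The other depletions gave CYTH3 nearly the same dex level. The shGLP libraries held 96.3, 105 and 98.4 CPM in ethanol, again all below the control range, and 193, 184 and 201 CPM in dex. The shHP1g libraries held 129, 94.9 and 98.1 CPM in ethanol and 210.4, 181 and 209 CPM in dex. The dex ranges of the depleted lines overlapped one another and all lay below the control range. The log2 dex response was 1.79 in shNS, against 0.98 ± 0.09 (SE) in shG9a, 0.95 ± 0.09 in shGLP and 0.90 ± 0.09 in shHP1g.

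METTL7A encodes a methyltransferase of the endoplasmic reticulum and lipid droplets, and here the 3 depletions did not act alike on the level. Its shNS libraries had 59.8, 56.2 and 47.7 CPM in ethanol and 196, 194 and 169 CPM in dex. With shG9a it had 44.4, 49.7 and 31.6 CPM in ethanol and 99.5, 97.0 and 82.3 CPM in dex. Both treatments of the shG9a line were thus low, and no shG9a dex library reached the lowest dex library of another line. With shGLP it had 76.9, 77.4 and 55.3 CPM in ethanol and 175, 167 and 139 CPM in dex, and with shHP1g 76.3, 66.9 and 53.8 CPM in ethanol and 146, 151 and 134 CPM in dex. On average these 2 lines started above the control and ended below it, and the dex range of shGLP overlapped that of shNS. Replicate 3 was the lowest library in 8 of 8 groups, a difference between replicate numbers that the replicate term of the model takes up.

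FAM53B, a regulator of the nuclear localization of β-catenin, resembled METTL7A. In shNS it had 88.3, 98.5 and 103 CPM in ethanol and 225, 243 and 259 CPM in dex. In shG9a it had 80.9, 89.4 and 76.5 CPM in ethanol and 132, 122 and 151 CPM in dex, below every other line in dex. In shGLP the ethanol libraries held 103, 109.6 and 128 CPM and the dex libraries 168, 191 and 199.8 CPM, and in shHP1g 102, 139 and 117 CPM and 169.5, 222 and 222 CPM. The highest shHP1g dex libraries came within a few CPM of the lowest control one without overlapping it.

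CDC42EP2, an effector that binds the GTPase CDC42 and shapes the actin cytoskeleton, reached a higher dex level in the shHP1g line than in the other depleted lines. In shNS it had 14.6, 15.0 and 15.9 CPM in ethanol and 47.3, 42.5 and 49.6 CPM in dex. Its dex libraries held 30.4, 27.3 and 28.0 CPM in shG9a and 28.5, 25.5 and 29.8 CPM in shGLP. In shHP1g they held 42.8, 32.6 and 37.6 CPM, above both other depleted lines and overlapping the control range. Ethanol levels lay between 13.3 and 18.1 CPM in all 3 depleted lines.

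BTNL9, a butyrophilin-like membrane protein of the immunoglobulin superfamily, moved in opposite directions in ethanol and dex after G9a depletion. Its shNS libraries had 16.0, 14.5 and 15.2 CPM in ethanol and 49.8, 46.6 and 52.1 CPM in dex. In shG9a they were 22.1, 20.4 and 18.5 CPM in ethanol and 41.3, 39.5 and 38.9 CPM in dex. The ethanol values of the shG9a line were all above the control range and the dex values all below it. In dex the shGLP line had 37.8, 25.2 and 31.7 CPM and the shHP1g line 32.2, 29.6 and 34.1 CPM, all below the shG9a libraries. The second accession, NM_001308245, had 6 to 61 counts per library. Reads that fit both accessions may have been divided between them or left out, so its values are uncertain.

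C1orf186, also named RHEX, encodes an adaptor of erythropoietin receptor signalling in erythroid cells. Its 3 shNS libraries rose from 25.4, 23.7 and 25.2 CPM to 112, 132 and 155 CPM. The dex libraries of the depleted lines held 55.8 to 81.8 CPM, about the same in all 3 lines, and their ethanol libraries 15.3 to 24.8 CPM. DISP3, a membrane protein of the Dispatched family with a sterol-sensing domain, went from 18.5 to 26.2 CPM in ethanol to 72.0 to 79.2 CPM in dex in control cells, and to 41.8 to 58.2 CPM in dex over the depleted lines. MCAM (CD146), a cell adhesion molecule of the immunoglobulin superfamily, had the smallest dex response of the 8 on the log2 scale in control cells, from 544 to 554 CPM in ethanol to 1170.5 to 1237 CPM in dex. In the depleted lines MCAM reached 899.7 to 1050.3 CPM in dex, so even here no depleted library entered the control range. In bulk RNA, a smaller share of responding cells and less mRNA in each cell cannot be told apart.

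**Figure D1:**
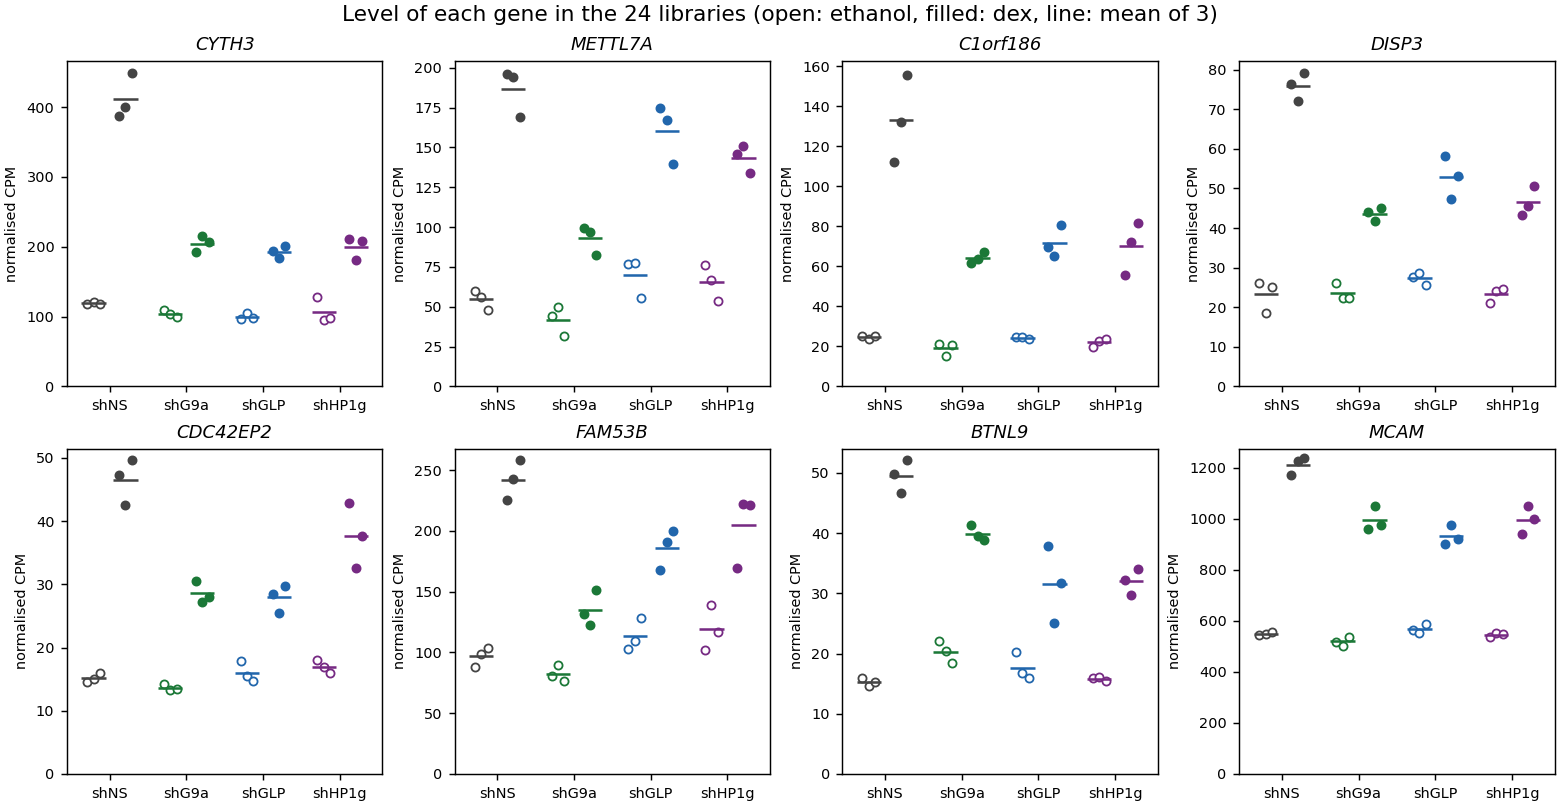
Normalised CPM (counts scaled by library, with upper quartile factors) of the 8 genes in each of the 24 libraries, by line; open points are ethanol, filled points dex, lines the mean of 3 replicates, and each vertical axis starts at 0. CYTH3 falls from 387 to 448 CPM in control dex libraries to 181 to 216 CPM in all depleted ones, while METTL7A and FAM53B are lower in shG9a than in the other depleted lines with either treatment.

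The promoters of 3 members with different patterns are shown to place them on the genome and to show how unlike their sequences are. CYTH3 (chr7:6201410-6312255, minus strand, 13 exons) was lowered alike by each depletion, METTL7A (chr12:51318798-51326291, plus strand, 2 exons) differed between lines at its level, and BTNL9 (chr5:180467266-180488521, plus strand, 11 exons) changed order between ethanol and dex. Each sequence is the 250 bases before the start of the MANE Select transcript in GENCODE 44 on GRCh37, read 5′ to 3′ on the gene's strand. Capitals mark a half-site of the glucocorticoid response element (AGAACA or TGTTCT). The intervals are chr7:6312256-6312505, chr12:51318548-51318797 and chr5:180467016-180467265.
CYTH3: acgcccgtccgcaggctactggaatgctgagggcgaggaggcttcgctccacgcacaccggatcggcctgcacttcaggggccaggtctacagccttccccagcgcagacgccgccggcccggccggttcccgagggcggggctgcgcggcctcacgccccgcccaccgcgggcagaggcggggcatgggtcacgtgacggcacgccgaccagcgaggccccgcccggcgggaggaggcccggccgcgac
METTL7A: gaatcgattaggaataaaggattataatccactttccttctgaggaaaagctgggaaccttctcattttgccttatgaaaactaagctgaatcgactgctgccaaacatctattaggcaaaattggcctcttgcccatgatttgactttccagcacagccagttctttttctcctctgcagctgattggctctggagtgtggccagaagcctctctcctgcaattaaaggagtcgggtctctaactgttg
BTNL9: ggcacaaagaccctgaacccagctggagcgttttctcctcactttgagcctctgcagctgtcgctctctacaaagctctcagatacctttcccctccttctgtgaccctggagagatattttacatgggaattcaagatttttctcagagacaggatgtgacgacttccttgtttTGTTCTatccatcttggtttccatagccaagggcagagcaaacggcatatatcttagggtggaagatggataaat
The half-site occurred in the window of 1 of 8 members, BTNL9, and in 8.68% of 18878 promoters. The GC content of these windows was 76.8% for CYTH3, 44.4% for METTL7A and 46.4% for BTNL9, over a range of 44.4% to 80.4% for the 8 members and a mean of 62.1% for all promoters. The core of the full element, GNACA followed by 3 bases of any kind and the reverse complement of GNACA, a palindrome that reads the same on both strands, lay within 10 kb of the start in 1 of 8 members and at 22.8% of all starts. That match was in an intron of CYTH3, 2938 bases inside the gene, at chr7:6309301-6309333, and is shown on the minus strand, which is the strand of the gene, with the match in capitals.
CYTH3 intron: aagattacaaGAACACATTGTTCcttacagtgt
The longer palindrome, AGAACA, 3 bases of any kind and TGTTCT, occurred near 0 of 8 members and near 0.307% of all starts. A match to letters is no measure of receptor binding, and no binding data were used here.

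Whether the 8 genes still answer dex after each depletion was tested within the depleted lines, in libraries that took no part in the control response. All 8 rose with dex in shG9a cells, where 3.26% of all tested accessions were called higher (edgeR quasi-likelihood test, Benjamini-Hochberg adjusted p of at most 0.05). All 8 rose in shGLP cells as well, beside 1.95% of accessions, and in shHP1g cells, beside 2.12%. Being dex-induced in control cells is what put these genes together, so a high count was built into the choice of members, and their dex libraries also entered the comparisons with shNS that chose them. The median log2 response was 0.98 in shG9a, 0.89 in shGLP and 1.00 in shHP1g, where the median of all accessions was 0.00, -0.01 and -0.01.

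C1orf186 had the highest log2 response of the 8 in each depleted line, 1.75 ± 0.11 (SE) in shG9a, 1.55 ± 0.11 in shGLP and 1.66 ± 0.11 in shHP1g (adjusted p = 4.84e-10, 2.85e-09 and 8.32e-10, edgeR). METTL7A had 1.16 ± 0.08, 1.21 ± 0.08 and 1.14 ± 0.08, nearly equal in the 3 lines in spite of its unequal levels, next after C1orf186 in shG9a and shGLP and about level with CDC42EP2 (1.15 ± 0.09) in shHP1g. FAM53B had the lowest response in each line apart from the near tie with MCAM in shGLP, at 0.71 ± 0.09, 0.71 ± 0.09 and 0.77 ± 0.09 (adjusted p = 1.09e-05, 8.21e-06 and 2.29e-06, edgeR). The remaining members lay between 0.72 and 1.15, with adjusted p of at most 9.48e-06 (edgeR). The minor accession of BTNL9 rose in shGLP (1.83 ± 0.27, adjusted p = 0.000105, edgeR) and shHP1g (0.97 ± 0.25, adjusted p = 0.0314, edgeR), and in shG9a its change of 0.81 ± 0.25 missed the threshold (adjusted p = 0.0566, edgeR). Its response in shNS was 1.42 ± 0.23. The difference from it was -0.62 ± 0.35 in shG9a and -0.45 ± 0.35 in shHP1g, but 0.41 ± 0.37 in shGLP, so no blunting was seen there.

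**Figure D2:**
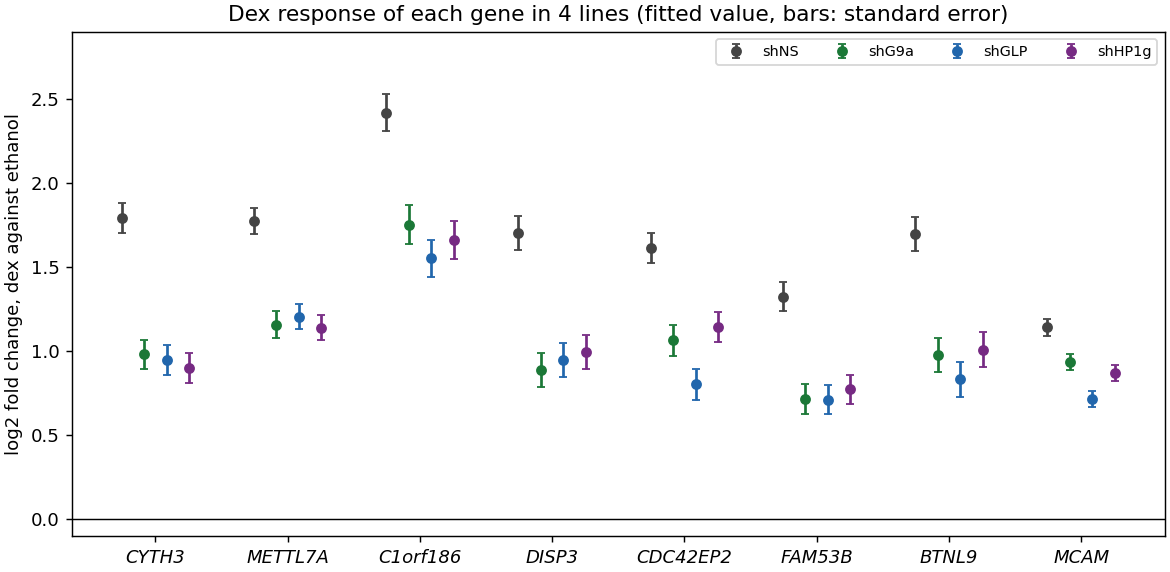
Fitted log2 fold change of dex against ethanol for each gene in each of the 4 lines, with bars of 1 standard error. The control response runs from 1.14 (MCAM) to 2.42 (C1orf186), and the responses of the depleted lines, 0.71 to 1.75, sit below the control response of the same gene and close to each other.

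The difference in response from control cells was one of the measures that chose the genes and is a description. For CYTH3 it was -0.81 ± 0.12 (log2 ± SE) in shG9a, -0.85 ± 0.12 in shGLP and -0.89 ± 0.12 in shHP1g. METTL7A had -0.62, -0.57 and -0.64 and FAM53B -0.61, -0.61 and -0.55, so for both genes the difference varied by less than its SE of 0.11 to 0.12 between lines. MCAM had the differences nearest 0, -0.21 ± 0.07, -0.43 ± 0.07 and -0.27 ± 0.07. Over the 8 genes the median was -0.64 in shG9a, -0.79 in shGLP and -0.66 in shHP1g, and over all accessions the share whose response differed from control was 0.0885%, 0.118% and 0.0197%.

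Expressed as the increment in CPM, depleted cells kept 31.5% to 71.5% of the control rise, depending on the gene. The increment is the dex level minus the ethanol level, as a percentage of the shNS increment of the same replicate. Averaged over the 8 genes it was 45.8% ± 0.417 (SD over 3 replicates) in shG9a, 47.0% ± 3.70 in shGLP and 52.2% ± 2.54 in shHP1g. CYTH3 kept 34.5% ± 4.93, 31.8% ± 3.83 and 31.5% ± 1.77, the lowest mean share of the 8 in each line. That order did not hold in every replicate. In replicate 2 FAM53B kept 22.9% in shG9a, against 40.1% for CYTH3, and BTNL9 kept 26.3% in shGLP, against 28.3%. MCAM kept 71.5% ± 8.32, 54.9% ± 6.39 and 68.0% ± 4.48. METTL7A kept 38.8% ± 4.09 in shG9a against 68.7% ± 3.42 in shGLP and 59.4% ± 7.83 in shHP1g, since the higher ethanol level of the latter lines makes an equal fold worth more CPM. These shares rest on the shNS dex libraries and carry no test.

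**Figure D3:**
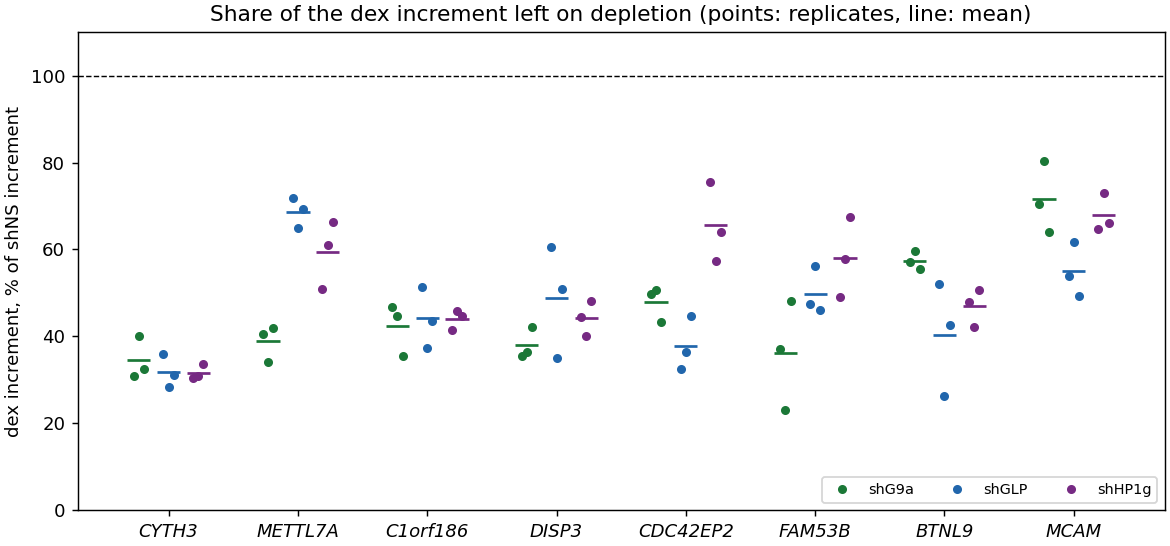
Dex increment of each gene in the 3 depleted lines as a percentage of the shNS increment of the same replicate; points are the 3 replicates, short lines their mean, and the dashed line at 100% is the control. All means lie between 31.5% and 71.5%, with the mean of CYTH3 lowest in every line, though not each of its replicates.

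Whether depletion changed the genes before any dex was asked of the ethanol libraries. These share the shNS ethanol libraries with the dex response of control cells, which helped to choose the genes. In shG9a cells 2 of 8 members were called, beside 3.73% of all accessions: METTL7A was lower by -0.39 ± 0.08 (adjusted p = 0.00622, edgeR) and BTNL9 higher by 0.41 ± 0.11 (adjusted p = 0.0306, edgeR). The shGLP line had 1 of 8, beside 3.61%, with METTL7A higher by 0.35 ± 0.08 (adjusted p = 0.00919, edgeR). The shHP1g line had 0 of 8 by edgeR, beside 2.91%, 0 by limma, 1 of 8 by DESeq2 and 2 of 8 at an unadjusted p under 0.05, with FAM53B at 0.30 ± 0.09 (adjusted p = 0.0699, edgeR) and METTL7A at 0.26 ± 0.08 (adjusted p = 0.0777, edgeR). At the same unadjusted limit (edgeR) there were 5 of 8 in shG9a and 4 of 8 in shGLP. Over all accessions there were 1547, 1330 and 1469 in shG9a, shGLP and shHP1g. CYTH3 differed by -0.19 ± 0.09, -0.25 ± 0.09 and -0.15 ± 0.09 in shG9a, shGLP and shHP1g, and its adjusted p ran from 0.162 to 0.479 (edgeR). In shGLP CYTH3 was called lower with only the compared groups fitted and without a low-count filter (adjusted p = 0.00506 and 0.0451, edgeR).

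The 3 ethanol calls are not firm. Without the replicate block, that is without the replicate term, METTL7A had adjusted p = 0.351 in shG9a and 0.426 in shGLP, and BTNL9 0.143 in shG9a (edgeR). METTL7A in shG9a lost its call without shG9a ethanol replicate 3 (adjusted p = 0.0616, edgeR), and METTL7A in shGLP without shGLP ethanol replicate 1 or 2 or shNS ethanol replicate 2 (0.0624, 0.0727 and 0.0717, edgeR). BTNL9 in shG9a lost it without any single shNS ethanol library or without shG9a ethanol replicate 1 or 2 (adjusted p from 0.0921 to 0.163, edgeR). Other calls appeared when a library was left out: CYTH3 was lower in shGLP and shHP1g without shHP1g ethanol replicate 1 (adjusted p = 0.0344 and 0.0449, edgeR), and C1orf186 was lower in shG9a without shG9a ethanol replicate 1 or shHP1g dex replicate 1 (adjusted p = 0.0311 and 0.0422, edgeR).

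Set beside the ethanol values, the dex levels that chose the genes differed from control by -1.01 ± 0.09, -1.10 ± 0.09 and -1.04 ± 0.09 for CYTH3 in shG9a, shGLP and shHP1g. METTL7A differed by -1.01 ± 0.07 in shG9a and by -0.22 ± 0.07 and -0.37 ± 0.07 in shGLP and shHP1g. For FAM53B the values were -0.84, -0.38 and -0.25 and for CDC42EP2 -0.70, -0.74 and -0.31, whereas BTNL9 ran the other way with -0.31, -0.66 and -0.63. The comparisons share the shNS dex libraries, and over all accessions 4.43%, 2.46% and 1.54% were called lower in them, from which nothing is read for genes so chosen.

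**Figure D4:**
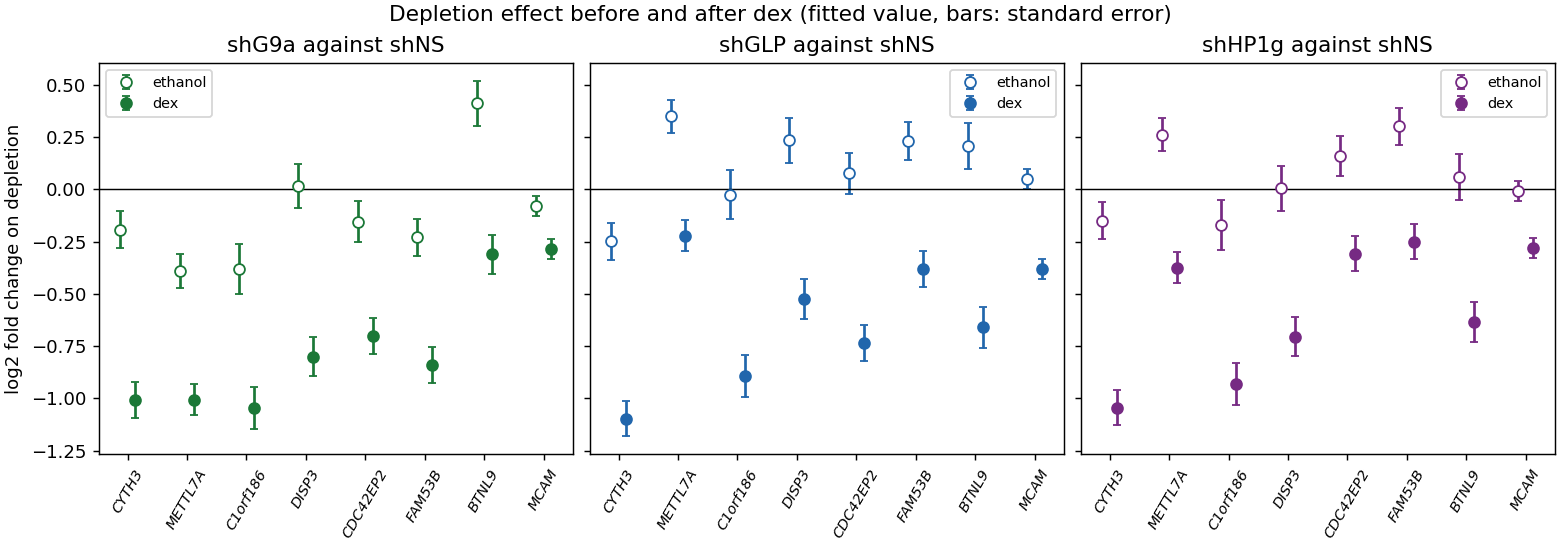
Fitted log2 difference of each depleted line from shNS in ethanol (open) and in dex (filled), with bars of 1 standard error. In dex all 24 values are below 0, from -1.10 to -0.22, whereas in ethanol they run from -0.39 to 0.41 on both sides of 0.

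How the depletions differ from each other was tested in dex and, in contrasts added after the data were seen, in ethanol. No control library is compared here, but all 24 libraries enter the fit and its estimate of the spread. The dex libraries of the depleted lines also entered the comparisons with shNS that chose the genes. The dex counts are therefore not independent of that choice. METTL7A and FAM53B separated the shG9a line from the others. In dex METTL7A was higher in shGLP than in shG9a by 0.79 ± 0.07 (log2 ± SE, adjusted p = 2.21e-07, edgeR) and in shHP1g than in shG9a by 0.63 ± 0.07 (adjusted p = 5.47e-06, edgeR). FAM53B was higher by 0.46 ± 0.09 and 0.59 ± 0.09 (adjusted p = 0.00141 and 0.000112, edgeR). The libraries of these pairs did not overlap for either gene. In ethanol the same genes differed by nearly the same amounts, METTL7A by 0.74 ± 0.08 and 0.65 ± 0.08 (adjusted p = 1.93e-06 and 1.48e-05, edgeR) and FAM53B by 0.46 ± 0.09 and 0.53 ± 0.09 (adjusted p = 0.00195 and 0.000589, edgeR), so the gap was present without dex. With only the compared groups fitted, FAM53B in dex was no longer called for shHP1g against shG9a (adjusted p = 0.0704, edgeR), and in ethanol without the replicate 3 libraries it was not for shGLP against shG9a (adjusted p = 0.25, edgeR).

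CDC42EP2 set the shHP1g line apart in dex, higher than in shG9a by 0.39 ± 0.09 (adjusted p = 0.00597, edgeR) and than in shGLP by 0.43 ± 0.09 (adjusted p = 0.00366, edgeR). In ethanol it differed by 0.31 ± 0.10 and 0.08 ± 0.10 (adjusted p = 0.0574 and 0.773, edgeR). The first of these was called by limma (adjusted p = 0.0442) and with the filter of a mean of 5 CPM (adjusted p = 0.047, edgeR). The gap to shG9a is thus not shown to be particular to dex. Both dex calls were lost without the replicate 1 or the replicate 3 libraries of all groups, as they were without a filter on low counts. BTNL9 was lower in dex in shGLP than in shG9a by -0.35 ± 0.10 (adjusted p = 0.0238, edgeR) and in shHP1g than in shG9a by -0.32 ± 0.10 (adjusted p = 0.0457, edgeR). In ethanol the BTNL9 differences were -0.20 ± 0.11 and -0.35 ± 0.11 (adjusted p = 0.324 and 0.0514, edgeR); the second was called by DESeq2 (adjusted p = 0.0326) and limma (adjusted p = 0.0411), and was about as large as in dex. Of the dex differences, the first lost its call in 8 of 35 alternatives. Among them were leaving out shG9a dex replicate 2 or shGLP dex replicate 2 or 3 (adjusted p = 0.0865, 0.201 and 0.0551, edgeR). The second lost its call in 22 of 35, with adjusted p up to 0.406 (edgeR). Leaving out any single shNS library was among these (adjusted p from 0.0524 to 0.058, edgeR).

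CYTH3, C1orf186, DISP3 and MCAM had no called difference between depleted lines with all 24 libraries in the fit. In ethanol C1orf186 was called higher in shGLP than in shG9a without shG9a ethanol replicate 1 or shHP1g dex replicate 1 (adjusted p = 0.0278 and 0.0477, edgeR), and C1orf186 and MCAM were with only the compared groups fitted (adjusted p = 0.0313 and 0.0176, edgeR). For CYTH3 in dex the 95% interval of the difference was -0.27 to 0.09 for shGLP against shG9a, -0.21 to 0.14 for shHP1g against shG9a and -0.13 to 0.23 for shHP1g against shGLP. In all, 3 of 8 members differed in dex between shGLP and shG9a (beside 8.62% of accessions), 4 of 8 between shHP1g and shG9a (6.43%) and 1 of 8 between shHP1g and shGLP (4.02%). The ethanol counts were 2 of 8 (6.23%), 2 of 8 (6.07%) and 0 of 8 (4.2%), the last with 1 member at an unadjusted p under 0.05, and DESeq2 and limma gave 0 there too.

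**Figure D5:**
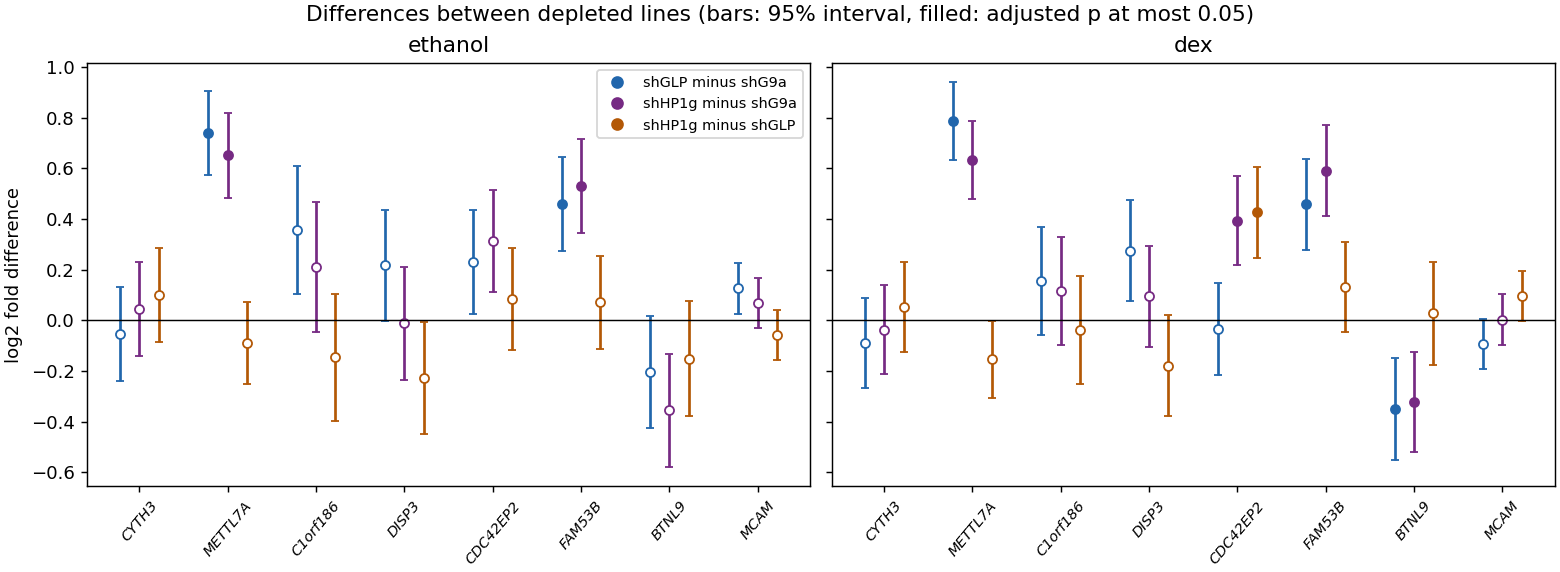
Fitted log2 difference between pairs of depleted lines in ethanol (left) and dex (right), with 95% intervals; filled points have an adjusted p of at most 0.05. METTL7A (0.63 to 0.79) and FAM53B (0.46 to 0.59) are higher in shGLP and shHP1g than in shG9a with either treatment, and the CYTH3 intervals all cross 0.

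The dex response itself was not shown to differ between depleted lines for any member. By edgeR 0 of 8 members and 0 of all 10167 accessions were called (0%) in each of the 3 tests of one response against another, and DESeq2 and limma also gave 0 members and 0 accessions. At an unadjusted p under 0.05 there were 1, 0 and 2 members, and 513, 463 and 196 accessions, for shGLP against shG9a, shHP1g against shG9a and shHP1g against shGLP. The member furthest from 0 was CDC42EP2, whose response was higher in shHP1g than in shGLP by 0.34 (95% interval 0.07 to 0.61, adjusted p = 1.00, edgeR). MCAM had the lowest unadjusted p of the 8. Its response differed by -0.22 for shGLP against shG9a (95% interval -0.36 to -0.08, unadjusted p = 0.00379, adjusted p = 0.902, edgeR). For shHP1g against shGLP it differed by 0.15 (95% interval 0.01 to 0.30, unadjusted p = 0.0337, edgeR). For METTL7A the intervals were -0.18 to 0.27, -0.24 to 0.21 and -0.29 to 0.16, which leaves room for response differences of that size.

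Other glucocorticoid-induced genes give a setting for the 8. In a list of 25 such genes, 19 were tested; 13 rose with dex in shNS cells (4.49% of all accessions did), 13 in shG9a, 12 in shGLP and 12 in shHP1g. BTG1, an antiproliferative gene, rose by 1.26 ± 0.08 (log2 ± SE) in shNS and by 0.99, 0.99 and 0.96 in shG9a, shGLP and shHP1g, each ± 0.08 (adjusted p of at most 2.79e-08, edgeR). DDIT4, an inhibitor of mTOR signalling, rose by 1.28 ± 0.16 in shNS and by 1.03, 1.43 and 1.14 in the depleted lines, and KLF13, a zinc finger transcription factor, by 1.12 ± 0.09 and by 0.65, 0.69 and 0.79. The level in dex was lower than in shNS for 9 of the 19 in shG9a, 9 in shGLP and 6 in shHP1g, beside 4.43%, 2.46% and 1.54% of all accessions, and it was higher for DUSP1 and IRS2 in shGLP and for IRS2 and MXI1 in shHP1g. The median difference in response from control was -0.21, -0.27 and -0.31 for this list, against 0.02 for all accessions. The list was written with earlier results of these data known, so its counts are a description. The paper itself names some of its genes, such as TXNIP and TSC22D3, as dependent on G9a, GLP and HP1γ in these cells. Its supplementary table of such genes also holds the members CYTH3, DISP3, BTNL9 and MCAM. Here the dex level of TSC22D3 was called lower in shG9a and shGLP, by -0.97 ± 0.13 and -0.83 ± 0.13 (adjusted p = 4.30e-05 and 0.000215, edgeR). In shHP1g it was not called. With dex 2 genes of the list fell in shNS: IRS2, of insulin signalling, by 0.28 on the log2 scale (adjusted p = 0.0372, edgeR), and MXI1, an antagonist of MYC, by 1.02 (adjusted p = 0.0127, edgeR). IRS2 fell also in shG9a.

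Genes of the pathways around single members were counted as well. Over all 10167 accessions, 634, 334 and 327 were called with dex in either direction in shG9a, shGLP and shHP1g. At such shares 0 calls among 8 or 9 genes say little about these families. Of 16 listed names of cytohesins, ARF GTPases and partners, 8 were tested and 0 were called with dex in any of the 4 lines by edgeR, with 1 to 3 per line at an unadjusted p under 0.05, 0 by limma and 1 by DESeq2, in shG9a. The other cytohesins, CYTH1, CYTH2 and CYTH4, did not pass the filter, so these counts say nothing about the family of CYTH3. ARF3, ARF6 and ARF5 changed by -0.14 to 0.18 (adjusted p of at least 0.0996, edgeR). Of 17 CDC42 effectors and regulators, 14 were tested, and in shNS CDC42EP4, a close relative of CDC42EP2, rose by 0.37 ± 0.10 (adjusted p = 0.0142, edgeR) while the kinase gene PAK2 and the septin gene SEPT6 fell by 0.19 and 0.32 on the log2 scale (adjusted p = 0.0243 and 0.000199, edgeR). PAK2 fell also in shG9a and SEPT6 in all 3 depleted lines, whereas ARHGAP1 and WAS were within 0.01 to 0.08 (adjusted p of at least 0.478, edgeR). Of 23 near relatives of the 8, such as other butyrophilins and Dispatched proteins, 9 were tested and 0 were called with dex in any line by edgeR, with 0 to 3 per line at an unadjusted p under 0.05, 0 by limma and 1 by DESeq2, in shNS. Among them were NPC1, ICAM1 and DISP2, with adjusted p of at least 0.0714 (edgeR). The butyrophilins tested averaged only 0.67 to 1.89 CPM, and DISP1 did not pass the filter. A dex response of these genes could be missed at this depth. ICAM1 was higher in shHP1g than in shG9a in dex by 0.48 ± 0.08 (adjusted p = 0.00072, edgeR). In ethanol the gap was nearly as large, 0.45 ± 0.08 (adjusted p = 0.00167, edgeR).

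The genes most like the 8 in their pattern over all 24 libraries were found by Pearson's r between the mean profile of the members and each non-member of at least 5 CPM, centred by replicate. They were ZC3H12D (r = 0.983), SOCS1 (0.982), AHDC1 (0.981), NFKBIA (0.981) and RASSF4 (0.971). SOCS1, an inhibitor of cytokine signalling, averaged 4.69 CPM in shNS ethanol and 35.0 CPM in shNS dex, and 14.7, 19.1 and 21.1 CPM in dex in shG9a, shGLP and shHP1g. NFKBIA, the inhibitor of NF-κB, averaged 147 and 312 CPM in shNS and 242, 237 and 226 CPM in dex after depletion. The 24 points share the dex effect and the control libraries, so r describes the shape only. The members' own r with the mean of the other 7 ran from 0.916 (BTNL9) to 0.989 (C1orf186).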

How the data were processed

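RNA-seq libraries of 24 Nalm6 cultures were analysed. The authors trimmed paired-end reads, aligned them to hg19 (GRCh37) with HISAT2 and obtained counts on RefSeq transcripts with GenomicAlignments; the counting mode, the strand setting and which RefSeq release was taken are not given in the sources used here. The deposited table is named for CPM but holds whole-number counts and was used as such. A second deposited table holds the authors' own fold changes and FDR values, which were not used; only its pairing of accessions with gene symbols was, with RefSeq symbols for the remainder (10159 of 10167 tested accessions had one).

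The test was edgeR 4.0.16's quasi-likelihood F test, run in R 4.3.3. Accessions with more than 1 CPM in at least 2 libraries were kept, libraries were scaled by the upper quartile, and 1 model held the 8 groups and a term for the replicate number. Benjamini-Hochberg adjustment covered all 10167 accessions, and an adjusted p of at most 0.05 was called, with no fold cutoff. Printed CPM values are scaled by upper quartile factors. DESeq2 1.42.0, limma 3.58.1 on log2(CPM + 1), other scalings and filters, fits to the compared groups alone, summed accessions and fits without each replicate or library were alternatives. The replicate number was kept because the labels put the replicates on different days, without saying which. Over 84 pairs of libraries with the same number, deviations from the group means correlated at -0.00249 to 0.639 (median 0.2), with 14 pairs under 0.1.

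The 8 genes and the gene lists were chosen with earlier results of these data known. Named were all 8 members, the depleted genes, the 3 genes of highest mean CPM in each list and the 5 non-members nearest in profile; IRS2, MXI1, DUSP1, CDC42EP4, SEPT6 and the single marker genes were named after their values were seen. Depth was 9289533 to 14387770 counts per library, and the lead accessions of the members had 145 to 15304 counts in a library. The model was tested on simulated counts, which carried no effect of the replicate. Of changes of 1.5-fold, 40.5% to 50% were called, and 41.5% in the test of one dex response against another. Differences of that size can thus be missed. Promoters were taken from GRCh37 with the GENCODE 44 annotation.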

Additional observations from a re-analysis of the deposited data

Results flagged for a closer look

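In 4 of the 8 genes a test found a difference between depleted lines. On the log2 scale METTL7A was higher in shGLP than in shG9a by 0.7862 in dex and 0.7389 in ethanol, and higher in shHP1g than in shG9a by 0.6332 in dex and 0.6512 in ethanol. FAM53B was higher in shGLP than in shG9a by 0.4587 in dex and 0.4608 in ethanol, and in shHP1g by 0.5915 and 0.5321. For both genes the gap before dex was about as large as the gap after it. CDC42EP2 differed in dex, where it was higher in shHP1g than in shG9a by 0.3937 and than in shGLP by 0.4266. Its ethanol difference for shHP1g against shG9a, 0.31, did not pass the test (adjusted p = 0.0574, edgeR) but was called by limma. BTNL9 differed in dex with the opposite sign, by -0.3499 for shGLP against shG9a and by -0.3224 for shHP1g against shG9a; its ethanol differences, -0.20 and -0.35, did not pass the test (adjusted p = 0.324 and 0.0514, edgeR), the second being called by DESeq2 and limma. The ethanol tests were added after the data were seen, and the dex libraries compared here also helped to choose the genes. Adjusted p values (edgeR) ran from 2.21e-07 for METTL7A to 0.0457 for BTNL9.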

How the results depend on the processing

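All 8 genes rose with dex in each depleted line under each of the 35 alternatives, and no called value changed sign; of 4200 values under alternatives, 99 changed sign, 0 of them called. The tests of one dex response against another gave 0 members under each of these alternatives, and without a low-count filter 34, 18 and 3 accessions in place of 0 for shGLP against shG9a, shHP1g against shG9a and shHP1g against shGLP. The counts in ethanol and between lines did depend on the setting. Without the replicate block, 0 members differed in ethanol for shG9a (2 otherwise) and 0 for shGLP (1 otherwise), and over all accessions the ethanol calls went from 379, 367 and 296 to 112, 171 and 66 for shG9a, shGLP and shHP1g, and the dex calls from 634, 334 and 327 to 227, 147 and 159. Between shGLP and shG9a, shHP1g and shG9a, and shHP1g and shGLP they went from 876, 654 and 409 to 387, 243 and 207 in dex and from 633, 617 and 427 to 254, 240 and 199 in ethanol. With only the compared groups fitted, the ethanol counts were 4 for shG9a, 3 for shGLP and 4 for shGLP against shG9a, and the dex counts 1 for shHP1g against shG9a and 0 for shHP1g against shGLP; over all accessions this fit gave 885, 803 and 143 in ethanol and 125, 820 and 1075 with dex for the 3 lines, and 237, 43 and 140 in dex and 1590, 150 and 136 in ethanol for the 3 pairs. Without a low-count filter 1 remained for shG9a in ethanol and 0 for shHP1g against shGLP in dex. For shHP1g in ethanol DESeq2, the filter of a mean of 5 CPM and summed accessions each gave 1 in place of 0, and limma and the filter of 5 CPM gave 4 in place of 2 for shHP1g against shG9a in ethanol. With accessions summed, the mean share of the increment kept in shG9a was 45.18%. The causes were not tested.

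Leaving out a replicate gave 0 to 1 members for shG9a and 0 to 1 for shGLP in ethanol, 0 for shHP1g, 2 to 3 for shHP1g against shG9a and 0 to 1 for shHP1g against shGLP in dex, and 1 to 2 for shGLP against shG9a and 2 for shHP1g against shG9a in ethanol. Leaving out single libraries gave 1 to 3, 0 to 2 and 0 to 1 in ethanol for the 3 lines, 3 to 4 and 1 in dex for shHP1g against shG9a and shGLP, and 2 to 3 and 2 to 4 in ethanol for shGLP and shHP1g against shG9a. A fit without shG9a ethanol replicate 3, for example, kept BTNL9 but lost METTL7A. With 3 replicates a permutation of 1 value cannot go below p = 0.1, so the calls rest on the spread shared over all accessions. EHMT1 had 18 to 50 counts in a library, and the adjusted p of its depletion and of CBX3 did not pass the threshold at this depth. The depletions themselves are reported in the paper by immunoblot and RT-qPCR.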
